A study of Mus musculus with 6 samples.

Results

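The genes described here encode the proteins of the mitochondrial ribosome, and their mRNAs were followed in platelets of mice homozygous for the R734C knock-in in integrin β3 and of wild-type mice. Members were all table rows whose symbol was Mrpl or Mrps followed by a number and at most 1 further letter. They numbered 77 of 24346 gene symbols, 48 with an Mrpl symbol for the large subunit and 29 with an Mrps symbol for the small subunit. The choice used only the symbols and no measured value.

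The study sequenced RNA of blood platelets, which the labels call thrombocytes, from homozygous β3(R734C) knock-in mice in 3 libraries and from wild-type mice in 3 libraries. Age, sex, strain background and any pooling of animals are not stated in the sources used here, nor is it stated whether each library came from its own animal, so p-values measure only the spread between these libraries, which may be technical. Values are FPKM, fragments scaled to transcript length and sequencing depth, which can be set side by side between genes because they are per length. In bulk samples, fewer cells that hold an mRNA and less of that mRNA per cell cannot be told apart.

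The mitochondrial ribosome translates the few proteins that mitochondrial DNA encodes, all of them subunits of the respiratory chain and ATP synthase. Its RNA comes from mitochondrial DNA, whereas every one of its proteins is encoded in the nucleus, made in the cytosol and imported. Platelets have no nucleus but carry mitochondria, and their mRNA is inherited from the megakaryocyte. Many members have a bacterial homologue, and others are found only in mitochondrial ribosomes. Symbols follow older naming, so a few mislead. Mrps30 and Mrps18a encode proteins now placed in the large subunit (mL65 and mL66), and the Mrps36 product is now assigned to the oxoglutarate dehydrogenase complex and not to the ribosome. It stays in the counts of the small subunit because of its symbol.

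All 10 platelet markers, among them Pf4 and Itga2b, were above 0 in every library. They summed to 49054 to 54500 FPKM in the knock-in and 52744 to 54968 FPKM in the wild type, which was 5.72% to 7.17% of total FPKM in the knock-in and 7.59% to 8.53% in the wild type. Of these markers Tubb1, the β-tubulin of the platelet lineage, was lower in the knock-in (log2 fold change -0.82, limma adjusted p = 0.00759), and the other 9 did not pass, with Pf4 and Gp9 wholly above and Gp6 and Ppbp wholly below the wild type. The erythroid markers summed to 180092, 25210 and 32676 FPKM in knock-in libraries 1, 2 and 3, against 93964, 48142 and 38284 FPKM in wild-type libraries 1, 2 and 3, so knock-in library 1 and wild-type library 1 were richest in haemoglobin mRNA in their groups. The 10 neutrophil markers summed to at most 1.90 FPKM in the knock-in and 2.22 FPKM in the wild type, with 7 to 8 and 6 to 9 of them at 0. The 9 T and NK cell markers summed to 5.06 to 8.83 FPKM in the knock-in and 2.67 to 4.42 FPKM in the wild type, with 5 to 8 and 7 to 8 of them at 0. Nkg7 held most of these sums, at 4.68 to 8.83 FPKM in the knock-in and 2.67 to 4.42 FPKM in the wild type. It did not pass (limma adjusted p = 0.151). The 6 B cell markers summed to 0.693 to 3.14 FPKM in the knock-in and 0.193 to 1.66 FPKM in the wild type, with 3 to 5 and 4 to 5 of them at 0. Among monocyte and macrophage markers Lyz2 alone had 7205 to 9127 FPKM in the knock-in and 7033 to 8240 FPKM in the wild type, while the other 7 summed to at most 1.15 FPKM in the knock-in and 1.01 FPKM in the wild type, with 2 to 4 and 1 to 4 of them at 0. The part of these markers in the results below was not tested, but values without the library richest in haemoglobin in each group are given where they change a call.

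Most members had low levels in platelets, although more of them reached the tested level than of all symbols. Of the 77 genes, 37 were above 0 FPKM in all 6 libraries, 38 in some of them, and Mrpl45 and Mrpl47 were listed at 0 throughout. A mean of at least 1 FPKM over the 6 libraries, the level needed to enter the test, was reached by 33 members (42.9%), 22 of 48 for the large subunit (45.8%) and 11 of 29 for the small subunit (37.9%), against 20% of all 24346 symbols. The median of the mean FPKM was 0.491 over the 77 members and 0.00303 over all symbols. Only 11 members averaged at least 10 FPKM. Knock-in libraries had 58, 54 and 49 members above 0 and wild-type libraries had 59, 52 and 51. The 44 members below the minimum had means up to 0.779 FPKM, with a median of 0.170 FPKM among those above 0. Among them, 5 were at 0 in every knock-in library and above 0 in at least 1 wild-type library (Mrpl41, Mrps5, Mrps22, Mrps28 and Mrps31). Another 7 were at 0 in every wild-type library and above 0 in at least 1 knock-in library (Mrpl21, Mrpl35, Mrpl37, Mrps2, Mrps9, Mrps18a and Mrps35). Of these, Mrps5, Mrps22, Mrps28, Mrps31, Mrpl21, Mrps2, Mrps9 and Mrps18a were above 0 in 1 library only. The share of all genes below the minimum with such values was not counted. At such levels a value of 0 can also be a failed estimate, so no fold is given for these 12.

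The mRNA was concentrated in a few members although the proteins, apart from that of Mrps36, are built into the same particle. The 3 most abundant, Mrps21, Mrpl48 and Mrpl20, held 36.8% of the members' summed mean FPKM, and the first 12, with Mrps36 among them, held 72.9%. Exons of Mrpl48 overlap those of Rab6a, which averaged 140 FPKM, and Mrps21 has a near-identical copy. The shares of Mrpl48 and Mrps21 are less certain for that reason. Summed over all members, the level was 344, 391 and 373 FPKM in knock-in libraries 1, 2 and 3 and 301, 330 and 349 FPKM in wild-type libraries 1, 2 and 3. That was 0.0401% to 0.0515% of the total FPKM in the knock-in and 0.0425% to 0.0542% in the wild type, so the groups overlapped on both scales. The large subunit summed to 198, 197 and 189 FPKM in the knock-in and 168, 190 and 202 FPKM in the wild type. The small subunit summed to 146, 194 and 183 FPKM in the knock-in and 133, 139 and 147 FPKM in the wild type, so the groups overlapped. Total FPKM was higher in every knock-in library, at 758381 to 856863 against 641278 to 708432 in the wild type. As a share of the total the small subunit held 0.0171%, 0.0256% and 0.0235% in knock-in libraries 1, 2 and 3 and 0.0188%, 0.0217% and 0.0229% in wild-type libraries 1, 2 and 3, with knock-in library 1 the lowest of the 6. The large subunit held 0.0231% to 0.0259% in the knock-in and 0.0237% to 0.0314% in the wild type.

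Mrps21, the most abundant member, encodes bS21m, a small protein with a bacterial homologue, on chromosome 3 at 95862634 to 95871519. It had 60.4, 83.0 and 81.2 FPKM in the knock-in libraries, against 54.8, 61.5 and 64.1 FPKM in the wild-type libraries. Knock-in library 1 lay within the wild-type range and the other two above it, and limma's adjusted p of 0.251 missed the threshold (log2 fold change 0.30, SE 0.15). Its sign turned, to -0.07, when a trend on transcript length was removed. Mrpl48, for the mitochondria-specific mL48, was second, with 38.5, 41.7 and 31.0 FPKM in the knock-in and 33.0, 42.9 and 31.8 FPKM in the wild type. These groups overlapped throughout, and the 95% interval of the log2 fold change ran from -0.34 to 0.43. Mrps23, for the mitochondria-specific mS23, averaged 17.9 ± 3.78 FPKM in the knock-in and 13.7 ± 4.10 FPKM in the wild type (SD, n = 3 each; limma adjusted p = 0.411).

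**Figure D1:**
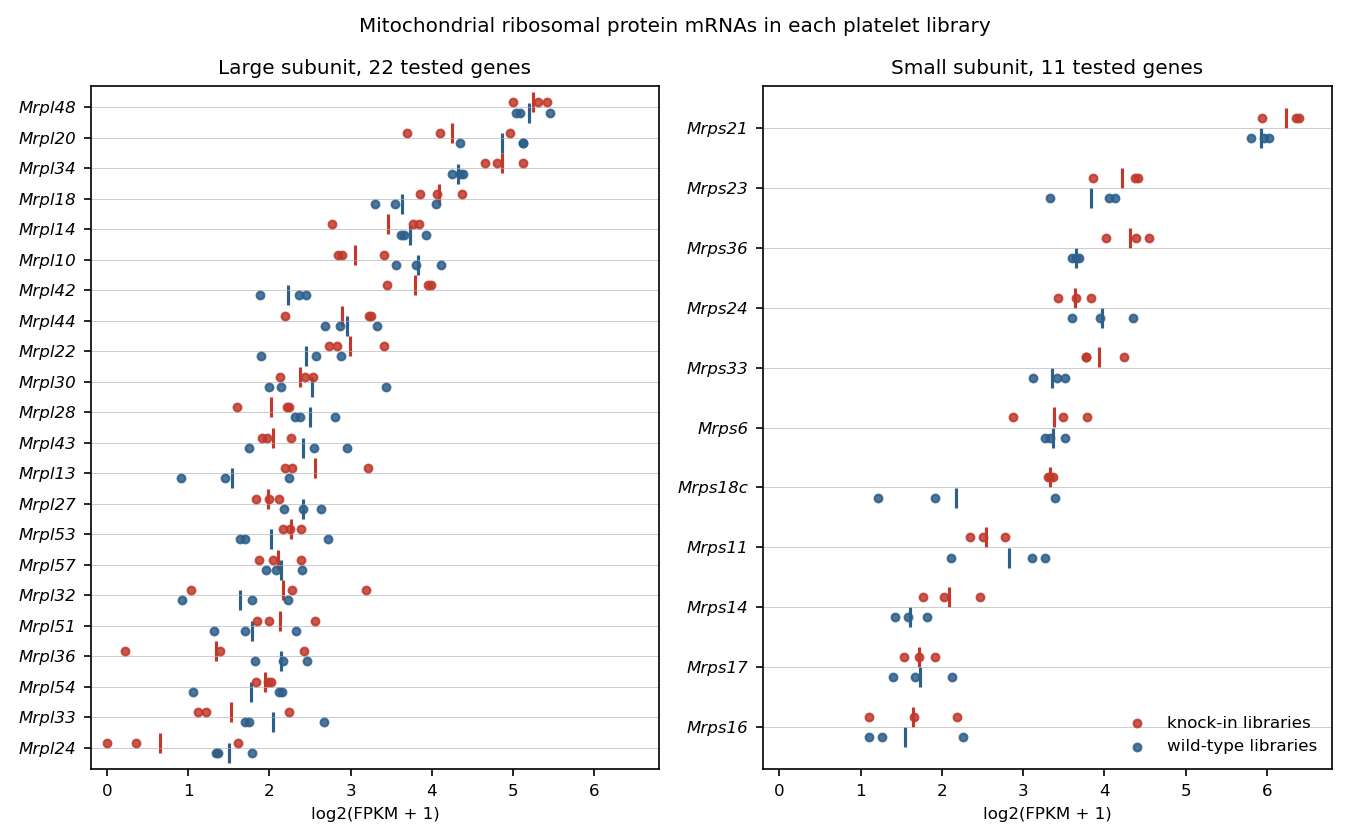
Level of each tested member in each library, as log2(FPKM + 1) on the horizontal axis, with knock-in libraries in red above wild-type libraries in blue and a bar at the mean of each group of 3. Mrpl42 is the member whose 3 knock-in points, from 9.91 to 14.9 FPKM, stand farthest to the right of its wild-type points, from 2.69 to 4.46 FPKM, while most other members overlap.

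Members with short transcripts reached the tested level more often. Of 30 members whose median annotated transcript was at most 1000 bases long, 18 reached a mean of 1 FPKM (60.0%), against 15 of 47 longer ones (31.9%). Over all protein-coding genes of the tables the shares were 26.02% of 2310 short and 22.3% of 17527 longer genes. Tested members had a median transcript length of 868 bases and the others 1506.5 bases. Across the 77 members the Spearman correlation of length and mean FPKM was -0.455, and across all 19837 protein-coding genes it was 0.0485. Among genes above 0 it was -0.426 for 75 members and -0.204 for 11132 protein-coding genes. These are correlations across genes of the same 6 libraries, given as a description, and FPKM divides by length, so an error in the assumed length enters both axes.

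**Figure D2:**
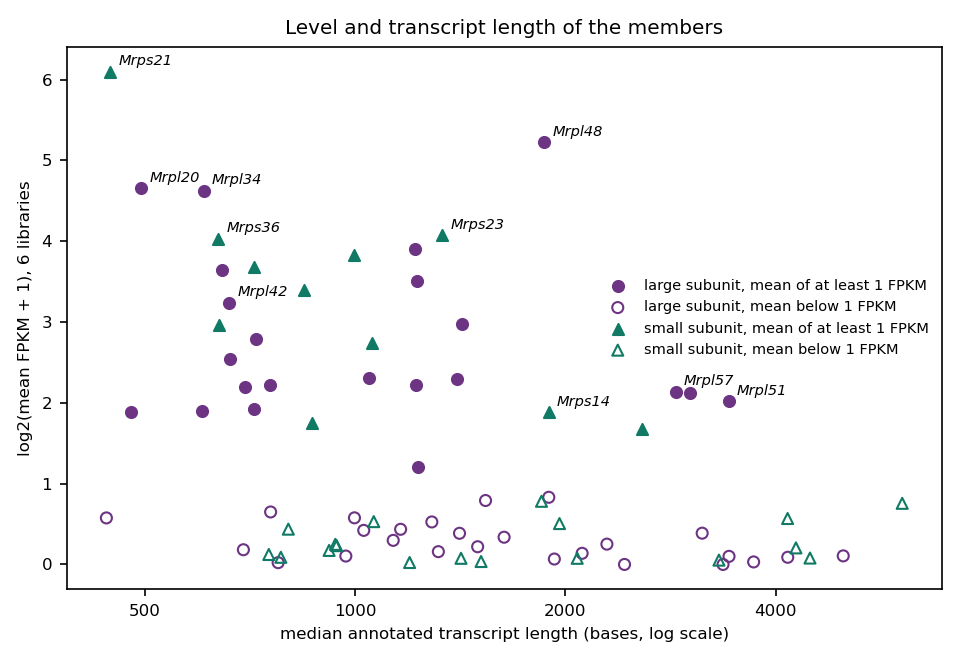
Median annotated transcript length in bases (horizontal, log scale) against log2(mean FPKM + 1) over the 6 libraries (vertical) for the 77 members, with circles for the large and triangles for the small subunit, filled where the mean reached 1 FPKM. Mrps21, Mrpl20 and Mrpl34 combine short transcripts with high levels, and Mrpl48 is the abundant member with a longer transcript.

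Positions and promoters were shared features that the choice of members did not use. In the GENCODE annotation of GRCm38, the start of 31 of the 77 members (40.3%) lay within 1000 bases of the start of a coding gene on the opposite strand, against 10.5% of 19837 coding genes. Mrpl46 and Mrps11 form such a pair with each other. Of the 29 partners that are not members 10 were tested and none passed limma's adjusted p, with 0 called higher and 0 called lower (1 and 2 at an unadjusted p under 0.05). Exons of 32 members overlap those of another annotated gene, 27 on the opposite strand, and the library kits do not mark strand, so reads there cannot be told apart. Among members whose values are given here, opposite-strand overlap holds for Mrpl10 (Gm11574), Mrpl12 (Gm16755), Mrpl13 (Mtbp), Mrpl14 (Tmem63b), Mrpl18 (Tcp1), Mrpl24 (Rrnad1), Mrpl27 (Eme1), Mrpl36 (Ndufs6), Mrpl48 (Rab6a), Mrps11 (Mrpl46) and Mrps18b (Gm16279). Same-strand overlap holds for Mrpl33 (Gm43809), Mrps6 (Gm49711 and Slc5a3), Mrps18c (Gm43511) and Mrps24 (Urgcp). Annotated transcripts of 9 members have a near-identical copy elsewhere (at least 95% identity over at least 50% of the transcript), among them Mrpl22 with Gm6997, Mrpl27 with Gm6304, Mrpl42 with Gm6419, Mrps21 with Gm6181 and Mrps36 with Mrps36-ps1 and Mrps36-ps2. Their levels are less certain for that reason.

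RefSeq promoters of GRCm38, 250 bases before to 50 after each start, were at hand for 68 members, and not for Mrpl4, Mrpl13, Mrpl15, Mrpl19, Mrpl38, Mrpl54, Mrps28, Mrps34 and Mrps35. They were searched on both strands for GCGCA and GCGC with 1 base of any kind between them, the core bound by NRF1, for CCGGAAG, the core of ETS factors such as GABPA (NRF2), and for AAGATGGC, the core bound by YY1. These factors are known regulators of nuclear genes for mitochondrial proteins. The NRF1 core stood in 13 members (19.1%) and in 7.17% of 17492 coding genes, the ETS core in 25 members (36.8%) and in 12.9%, and the YY1 core in 12 members (17.6%) and in 3.57%. Among coding genes tested in platelets the shares of the NRF1, ETS and YY1 cores were 13.6%, 22.7% and 6.37%, and among 63 cytosolic ribosomal protein genes they were 9.52%, 41.3% and 9.52%. The E-box CACGTG, searched likewise, stood in 5 members (7.35%) and in 8.91% of coding genes, and TATAAA on the gene's strand in 4 members (5.88%) and in 9.82%. Of members with a promoter at hand, the ETS core stood in 15 of 31 that were tested (48.4%) and in 10 of 37 below the minimum (27.0%). No member promoter began at the annotated start with C and 4 further pyrimidines, the pattern of terminal oligopyrimidine mRNAs, which 13 of the 63 cytosolic ribosomal protein genes had (20.6%) and 2.67% of coding genes. Only the annotated start base was searched, so the pattern at a start elsewhere would be missed in any of these sets. A match describes letters in this window and not a bound site. The promoters of the gene that passed the test, of the most abundant member and of Mrpl34 and Mrps33, whose knock-in values all lay above the wild type, are shown 5′ to 3′ on the gene's strand, with matches to the NRF1, ETS and YY1 cores in capitals.
Mrpl42 (chr10:95501900-95502199, minus strand): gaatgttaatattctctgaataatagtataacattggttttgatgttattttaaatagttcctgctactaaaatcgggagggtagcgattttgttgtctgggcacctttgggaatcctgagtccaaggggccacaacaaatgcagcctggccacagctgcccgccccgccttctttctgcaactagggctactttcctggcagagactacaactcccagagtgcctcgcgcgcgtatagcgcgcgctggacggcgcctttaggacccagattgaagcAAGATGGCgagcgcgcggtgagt
Mrps21 (chr3:95871465-95871764, minus strand): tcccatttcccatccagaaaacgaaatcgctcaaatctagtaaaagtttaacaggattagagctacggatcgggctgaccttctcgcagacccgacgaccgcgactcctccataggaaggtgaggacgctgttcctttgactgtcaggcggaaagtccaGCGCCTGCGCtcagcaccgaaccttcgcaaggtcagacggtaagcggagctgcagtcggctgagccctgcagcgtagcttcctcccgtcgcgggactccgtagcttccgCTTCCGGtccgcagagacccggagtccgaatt
Mrpl34 (chr8:71464676-71464975, plus strand): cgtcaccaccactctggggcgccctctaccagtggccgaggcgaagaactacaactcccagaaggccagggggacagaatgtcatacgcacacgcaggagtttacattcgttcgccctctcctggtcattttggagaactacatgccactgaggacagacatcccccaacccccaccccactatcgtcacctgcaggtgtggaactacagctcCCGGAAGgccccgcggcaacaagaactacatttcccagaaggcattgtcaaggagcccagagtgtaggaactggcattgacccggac
Mrps33 (chr6:39810887-39811186, minus strand): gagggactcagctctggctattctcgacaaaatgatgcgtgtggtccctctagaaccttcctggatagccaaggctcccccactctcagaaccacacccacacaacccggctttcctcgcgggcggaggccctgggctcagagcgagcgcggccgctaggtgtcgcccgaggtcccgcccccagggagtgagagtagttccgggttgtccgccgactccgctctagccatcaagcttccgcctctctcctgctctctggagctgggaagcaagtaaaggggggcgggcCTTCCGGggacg
The Mrpl42 window holds a YY1 core that starts at base 28 after the start. The Mrps21 window holds an NRF1 core at -91 and an ETS core at 19, and the Mrpl34 and Mrps33 windows an ETS core at -37 and at 39. Mrps36, whose knock-in values also all lay above the wild type, is not shown, and its window holds none of these cores.

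Of the 33 tested members 1 passed the test between genotypes, Mrpl42, which was higher in the knock-in. Over all 4859 genes tested, 8.36% passed limma's adjusted p of 0.05, 4.36% as higher and 3.99% as lower, so 1 of 33 members (3.03%) was no larger a share than that of all genes. Of the 22 large subunit genes tested 1 was higher and 0 were lower (limma; 3 and 1 at an unadjusted p under 0.05), and of the 11 small subunit genes 0 were higher and 0 lower (limma; 3 and 0 at an unadjusted p under 0.05). At an unadjusted p under 0.05, 12.5% of all genes tested were higher and 12.9% lower. Values did not overlap between the groups in 7 members (21.2%), 4 higher and 3 lower, against 30.7% of all genes tested, 14.9% higher and 15.8% lower. Group means of FPKM + 1 were at least 2-fold apart in 1 member, Mrpl42 again, which was higher, against 3.11% of all genes tested, 1.44% higher and 1.67% lower. The median pooled SD within groups was 0.44 on the log2(FPKM + 1) scale for tested members and 0.27 for all genes tested.

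Mrpl42 encodes mL42, a protein of the large subunit with no bacterial homologue. It lies on chromosome 10 at 95480805 to 95501940 of GRCm38, minus strand. It had 9.91, 14.5 and 14.9 FPKM in the knock-in libraries, against 2.69, 4.46 and 4.17 FPKM in the wild-type libraries. The lowest knock-in value was more than the highest wild-type value, with no overlap. Group means were 13.1 ± 2.77 FPKM in the knock-in and 3.77 ± 0.950 FPKM in the wild type (SD, n = 3 each), a 2.96-fold ratio of means of FPKM + 1. The log2 fold change was 1.56 (SE 0.24, 95% interval 1.01 to 2.12, limma adjusted p = 0.0105), and it was higher in 3 of 3 knock-in libraries. The call was lost without the variance trend (adjusted p = 0.0623), and after dropping wild-type library 2 (0.0518), the second knock-in library (0.0557) or the third (0.0583), with log2 fold changes of 1.47 to 1.67. With a pseudocount of 5 the log2 fold change was 1.04, and it still passed (adjusted p = 0.0107).

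The other members with higher values in the knock-in did not pass. Mrps36, whose product is a subunit of the oxoglutarate dehydrogenase complex and whose gene lies on chromosome 13 at 100735955 to 100744659, had 15.2, 19.99 and 22.4 FPKM in the knock-in, against 11.5, 11.1 and 11.9 FPKM in the wild type. Its groups did not overlap, and the wild-type libraries lay close together (log2 fold change 0.68, SE 0.18, limma adjusted p = 0.0537). It passed at a mean FPKM of at least 5 (adjusted p = 0.0349), under robust empirical Bayes moderation (0.0410), when libraries were weighted (0.0246), after dropping knock-in library 1 (0.0192) and without the library richest in haemoglobin in each group (0.0195), and its log2 fold change was 0.37 when a trend on transcript length was removed. Mrpl34, for bL34m, a very small protein with a bacterial homologue encoded on chromosome 8 at 71464959 to 71465747, had 24.2, 33.9 and 26.9 FPKM in the knock-in, against 19.9, 17.98 and 19.3 FPKM in the wild type. Its groups did not overlap either (log2 fold change 0.53, SE 0.16, limma adjusted p = 0.0774). It passed with sample weights (adjusted p = 0.0420), without knock-in library 1 (0.0431) and without the library richest in haemoglobin in each group (0.0386), and its log2 fold change was 0.22 when the length trend was removed. Mrps33, for the mitochondria-specific mS33 and encoded on chromosome 6 at 39801804 to 39810988, had 12.6, 17.8 and 12.7 FPKM in the knock-in, against 10.4, 9.69 and 7.68 FPKM in the wild type. These groups too were apart, and the difference did not pass (log2 fold change 0.58, SE 0.20, limma adjusted p = 0.113), and the log2 fold change was 0.32 when the length trend was removed.

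Mrps18c and Mrpl13 had log2 fold changes above 1 with a wide spread. Mrps18c, for bS18m, had 9.04, 9.34 and 8.87 FPKM in the knock-in, against 2.77, 1.31 and 9.50 FPKM in the wild type. Wild-type library 3 lay above every knock-in library, so the groups overlapped (log2 fold change 1.16, SE 0.48, limma adjusted p = 0.172). Without wild-type library 3 the log2 fold change was 1.77 and passed (adjusted p = 0.0446). Its paralogues Mrps18a and Mrps18b were below the minimum, with Mrps18a above 0 in 1 knock-in library only and Mrps18b at no more than 0.811 FPKM in the knock-in and 0.239 FPKM in the wild type. Mrpl13, for uL13m, had 3.84, 3.55 and 8.27 FPKM in the knock-in, against 0.890, 3.71 and 1.74 FPKM in the wild type (log2 fold change 1.02, SE 0.40, limma adjusted p = 0.158). Of the remaining members with positive values, Mrpl22, which lines the exit tunnel in bacterial ribosomes, had a log2 fold change of 0.54 (SE 0.31), Mrpl32 of 0.52 (SE 0.55), Mrps14 of 0.48 (SE 0.27) and Mrpl18 of 0.46 (SE 0.23). None of these passed limma's adjusted p, with values from 0.266 to 0.616.

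No member passed as lower in the knock-in. Mrpl10, for uL10m, which anchors the stalk that carries bL12m, lies on chromosome 11 at 97041560 to 97049213. It had 6.21, 9.68 and 6.46 FPKM in the knock-in, against 12.999, 16.3 and 10.8 FPKM in the wild type. Every knock-in library lay below every wild-type library (log2 fold change -0.77, SE 0.23, 95% interval -1.29 to -0.25), but the adjusted p in limma was 0.0747 and lay between 0.0533 and 0.238 over the 19 alternatives. Mrpl12, for the bL12m of that stalk, was below the minimum, at 0, 0.139 and 0 FPKM in the knock-in and 0.557, 0 and 0 FPKM in the wild type. Mrpl27, for bL27m, averaged 2.96 ± 0.397 FPKM in the knock-in and 4.36 ± 0.830 FPKM in the wild type, and Mrpl28, for bL28m, 3.14 ± 0.949 FPKM in the knock-in and 4.74 ± 1.11 FPKM in the wild type (SD, n = 3 each). Both had knock-in values wholly below the wild type without passing (limma adjusted p = 0.277 and 0.300).

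Whether Mrpl20 and Mrpl24 passed depended on knock-in library 1. Mrpl20, for bL20m, had 30.0, 16.1 and 11.9 FPKM in the knock-in, against 19.3, 33.9 and 33.9 FPKM in the wild type. The library richest in haemoglobin in each group was the exception on its own side, high in the knock-in and low in the wild type. The log2 fold change was -0.61 (limma adjusted p = 0.300) and became -0.97 without knock-in library 1 (adjusted p = 0.0455) and -1.23 without both of those libraries (adjusted p = 0.00415). Mrpl24, for uL24m, had 2.05, 0.278 and 0 FPKM in the knock-in, against 1.53, 1.58 and 2.45 FPKM in the wild type, and was the 1 tested member with a mean of at least 1 FPKM in the wild type alone. Its log2 fold change was -0.84 (limma adjusted p = 0.258). It became -1.32 without knock-in library 1 (adjusted p = 0.0328) and -1.40 without both libraries (adjusted p = 0.0453). Mrpl24 reached the minimum only through its wild-type values, so the filter favoured a lower value in the knock-in. These adjusted p-values therefore give no support for a change. Without knock-in library 1 the members called were Mrpl34, Mrpl42 and Mrps36 as higher and Mrpl20 and Mrpl24 as lower. That was 5 of 33, Mrpl24 included, against 12.6% of all genes tested. Mrpl36, for bL36m, and Mrpl33, for bL33m, had log2 fold changes of -0.80 (SE 0.50) and -0.51 (SE 0.39), and the 95% interval of each included 0.

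**Figure D3:**
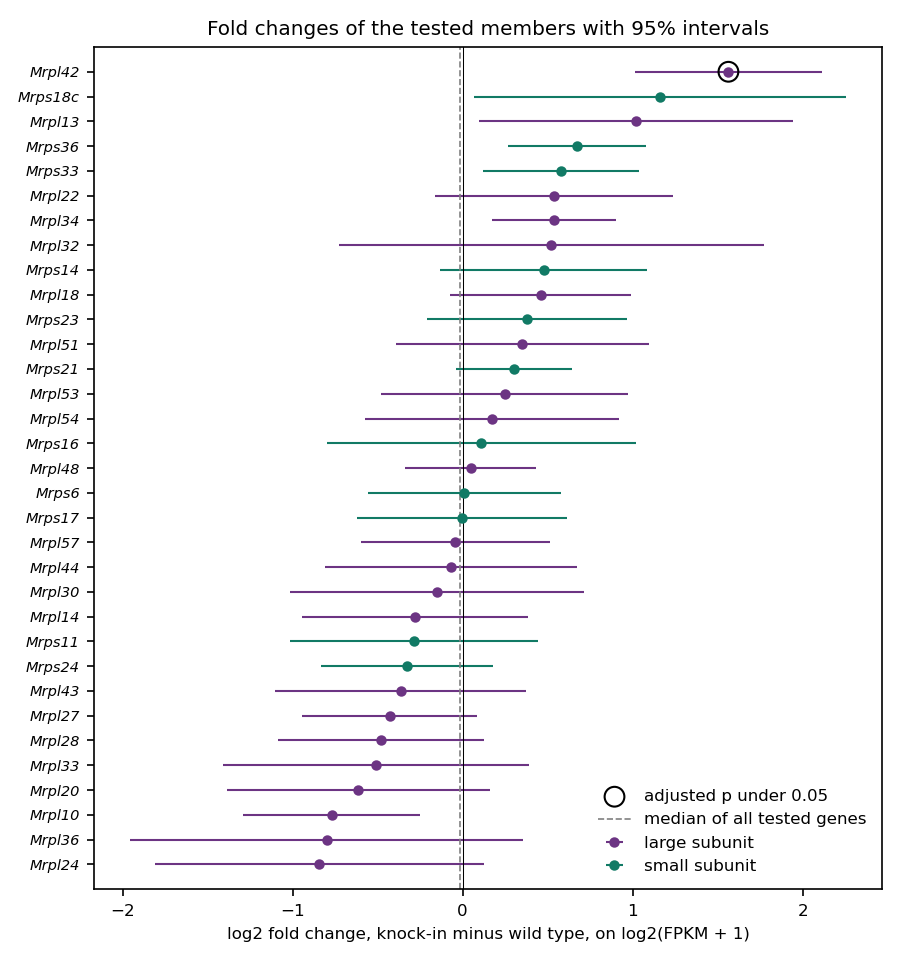
Log2 fold change, knock-in minus wild type, of the 33 tested members with 95% intervals from limma (horizontal axis), large subunit in purple and small subunit in green, with the median of all genes tested as a dashed line. The ringed point is Mrpl42, at 1.56, the member that passed the adjusted p of 0.05.

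The median log2 fold change was -0.06 over the 22 tested large subunit genes and 0.30 over the 11 tested small subunit genes, against -0.01 over all genes tested. Positive values were found in 10 of 22 and in 8 of 11, against 48.5% of all genes tested. The small subunit median was 0.16 when the trend on transcript length was removed, and 0.11 with no filter on low values, when all 29 genes entered. The large subunit median was -0.12 and 0.05 under the same changes, so its sign depended on the setting. Among the remaining small subunit genes Mrps24, for uS3m, had a log2 fold change of -0.33 (SE 0.22), Mrps11 of -0.29 (SE 0.32), Mrps16 of 0.11 (SE 0.40), Mrps6 of 0.01 (SE 0.25) and Mrps17 of -0.01 (SE 0.27). In the large subunit Mrpl14 had -0.28 (SE 0.29). Moving Mrps30 and Mrps18a to the large subunit left the same 22 and 11 genes tested, because both were below the minimum. Mrps36 stayed among the 11, although its product is now assigned outside the ribosome. Its log2 fold change of 0.68 enters the median of 0.30, and no median was taken without it. Of 45 members with a bacterial homologue 22 were tested, with a median log2 fold change of -0.08 and 0 called (limma; 3 higher and 1 lower at an unadjusted p under 0.05), and of 31 mitochondria-specific members 10 were tested, with a median of 0.21 and 1 called (limma; 2 higher and 0 lower at an unadjusted p under 0.05). The 1 of 10 lies near the 8.36% called over all genes tested. Mrps18a and Mrps18b count as mitochondria-specific by protein name (mL66 and mS40), although their paralogue Mrps18c counts as having a bacterial homologue. Neither was tested, so these medians and calls do not depend on their class.

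Over all genes tested the median log2 fold change was 0.37 for 352 genes of up to 750 bases, 0.11 for 977 genes up to 1500 bases and -0.07 for 3356 longer genes. Members had medians of 0.27 (14 genes), -0.29 (13 genes) and 0.23 (6 genes) in the same classes. The Spearman correlation of length and log2 fold change was -0.226 across tested coding genes and -0.046 across the 33 members, as a description.

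Most genes that act with the mitoribosome were also below the minimum. In the lists that follow 12.5% to 25% were tested, against 20% of all symbols. None of those tested passed (limma, 0 higher and 0 lower in each list). With at most 4 tested genes in a list, 0 called cannot be set apart from the 8.36% called over all genes tested. At an unadjusted p under 0.05 in limma, 1 translation factor was higher and 1 synthetase lower. Of 6 mitoribosomal proteins that carry other symbols 1 was tested, Aurkaip1 (mS38), with 7.73, 7.73 and 4.41 FPKM in the knock-in and 6.403, 4.99 and 8.60 FPKM in the wild type. Dap3 (mS29) had 0.544, 0 and 0.334 FPKM in the knock-in and 0.384, 0.250 and 0.164 FPKM in the wild type. Of 24 assembly factors 3 were tested, with a median log2 fold change of 0.18, and Rbfa, an assembly factor of the small subunit, averaged 27.2 ± 3.30 FPKM in the knock-in and 25.1 ± 3.75 FPKM in the wild type (SD, n = 3 each). Mterf3, a factor of the mitochondrial termination factor family needed for ribosome assembly, had a log2 fold change of 0.18 (SE 0.38). Of 21 translation factors 4 were tested, with a median of 0.01. Mrrf, the mitochondrial ribosome recycling factor, had 12.4, 15.5 and 10.1 FPKM in the knock-in, against 6.398, 6.55 and 9.65 FPKM in the wild type. Its groups did not overlap, and it did not pass (log2 fold change 0.68, SE 0.23, limma adjusted p = 0.104). Slirp, an mRNA-stabilising partner of Lrpprc, had -0.24 (SE 0.37). Of 22 genes for aminoacyl-tRNA synthetases that serve mitochondria and for the glutamyl-tRNA amidotransferase (Qrsl1, Gatb and Gatc) 4 were tested, with a median of 0.27. Lars2 stood far above the others, at 755, 639 and 630 FPKM in the knock-in and 755, 828 and 788 FPKM in the wild type, and did not pass (log2 fold change -0.23, SE 0.10, limma adjusted p = 0.180). Whether all reads counted at Lars2 came from its own mRNA, and not from another RNA of like sequence such as ribosomal RNA, was not tested, so its level and its fold change are uncertain. Gars had 0.42 (SE 0.29). Of 8 genes of mitochondrial transcription and DNA replication 2 were tested, Tfb2m, a transcription factor of mitochondrial DNA, with 0.48 (SE 0.26), and Polg, the mitochondrial DNA polymerase, with -0.23 (SE 0.39). Genes of mitochondrial DNA, among them those of the mitoribosome's RNA, were not analysed here.

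The other ribosome and the respiratory chain give the scale for these values. Of 75 tested cytosolic ribosomal protein genes 19 were higher and 0 lower (limma; 45 and 0 at an unadjusted p under 0.05), with a median log2 fold change of 0.58, and they summed to 3162, 3537 and 3587 FPKM in the knock-in and 2150, 2076.5 and 2098 FPKM in the wild type. Of 72 tested nuclear-encoded genes of oxidative phosphorylation 7 were higher and 6 lower in limma, with a median of -0.02. At an unadjusted p under 0.05 in limma, 17 of them were higher and 12 lower. The called share was 25.3% for the cytosolic ribosomal proteins and 18.1% for oxidative phosphorylation, against 8.36% of all genes tested. A mean of 1 FPKM was reached by 89.3% of cytosolic ribosomal protein genes and 87.8% of oxidative phosphorylation genes, against 42.9% of the mitoribosomal members. The difference between these lists was not tested.

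**Figure D4:**
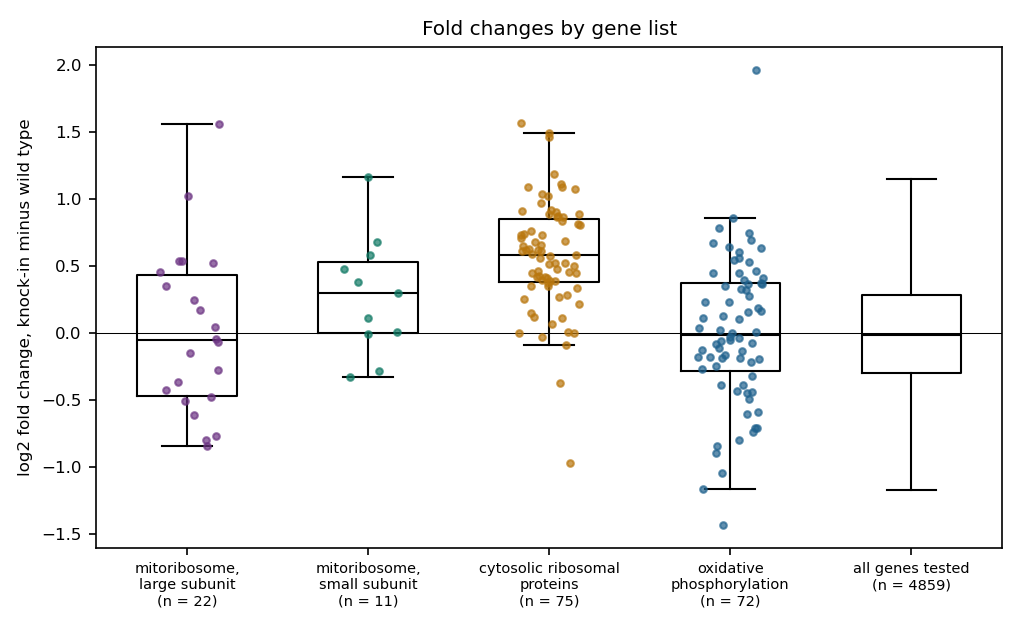
Log2 fold changes, knock-in minus wild type (vertical axis), of tested genes in 4 lists, with a point per gene, and of all 4859 genes tested. Boxes span the quartiles around the median and whiskers reach the farthest value within 1.5 times that span. The medians are -0.06 and 0.30 for the mitoribosomal subunits, 0.58 for cytosolic ribosomal proteins, -0.02 for oxidative phosphorylation and -0.01 for all genes.

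**Figure D5:**
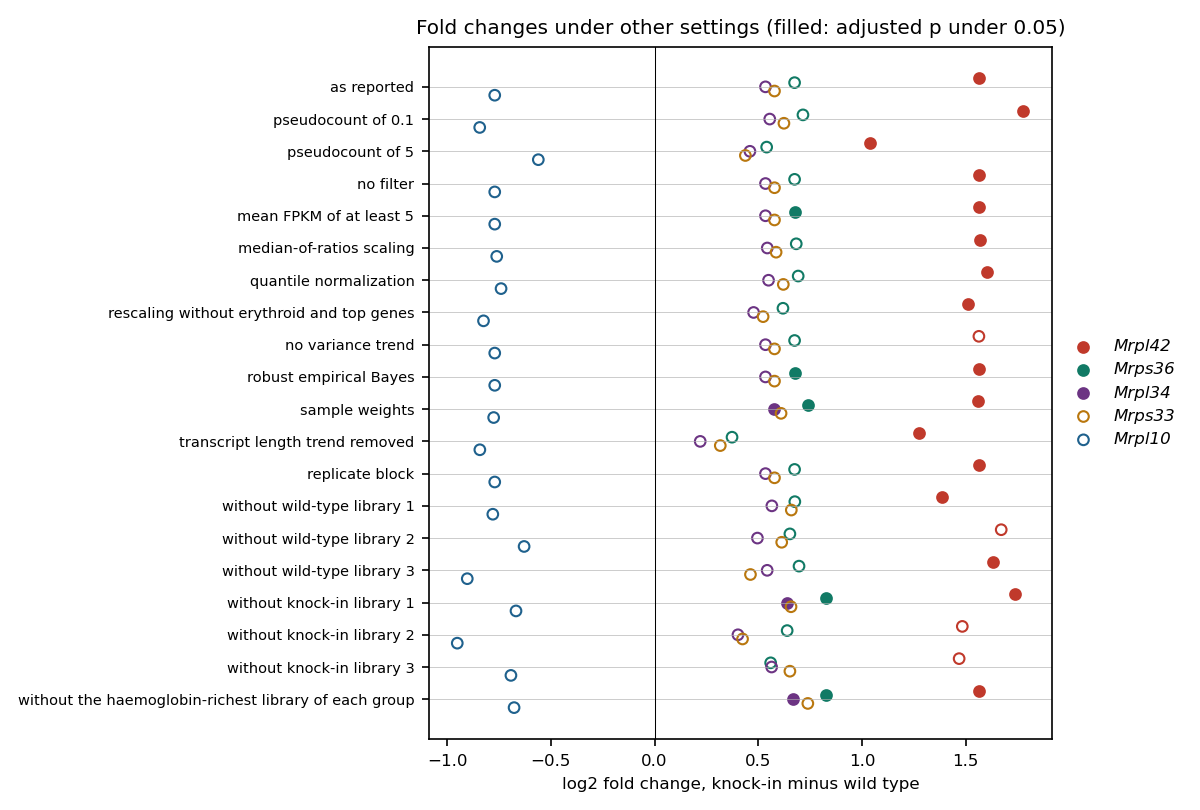
Log2 fold change (horizontal axis) of Mrpl42, Mrps36, Mrpl34, Mrps33 and Mrpl10 as reported and under each alternative (rows), filled where the adjusted p was under 0.05. Mrpl42 keeps log2 fold changes of 1.04 to 1.78 and is filled in 15 of 19 alternatives, and no sign changes for these 5 genes.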

How the data were processed

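The authors deposited FPKM per gene symbol, 1 table per library, for 24346 symbols, per the file headers. Per the labels' protocols, TRIzol and miRNeasy Micro columns gave the RNA, SMART-Seq HT the cDNA and Nextera XT the libraries, none of which marks strand. Build mm10, Cuffdiff 2.2.1, TopHat2 2.1.1, SAMtools 0.1.18 and Bowtie2 2.2.8 are named in the submitters' processing notes. Their settings and the annotation are not given in the sources used here. Fragment counts were not analysed here. The commonest ratio of values under 0.5 FPKM put the depth relative to wild-type library 1 at 0.883, 1.00 and 1.05 in knock-in libraries 1, 2 and 3 and at 1.05 and 1.02 in wild-type libraries 2 and 3; absolute depth is unknown.

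Genes with a mean of at least 1 FPKM over the 6 libraries, 4859 in all, entered a two-sided test of genotype on log2(FPKM + 1), fitted in limma 3.58.1 (R 4.3.3) with a mean-dependent prior variance; p-values were adjusted by Benjamini and Hochberg's method over all of them (threshold 0.05). Fold changes are on that scale, which understates changes of low genes. On simulated data for this comparison over 4859 genes, 45% of 100 genes changed by 1 on the log2 scale and 89% of 100 changed by 2 were recovered. The changed genes were drawn from all genes tested, whose median pooled SD was 0.27, against 0.44 for tested members. Recovery among members was not simulated. Lengths, positions and overlaps came from GENCODE M21 (GRCm38), with all 77 members matched by symbol, and copies from BLAST+ 2.17.0. Promoters came from RefSeq. Named were members that passed, the 6 most abundant and the 5 with the largest positive and negative log2 fold change in each subunit, Mrps18a to Mrps18c and, in each list of partner genes, the 2 most abundant; Mrpl12, Mrpl27 and Mrpl28 were chosen after their values were seen. The members and lists were chosen with earlier results of these data known.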

Additional observations from a re-analysis of the deposited data

How the results depend on the processing

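Of 448 values of named members under 19 alternatives, 403 kept their direction and their side of the threshold, 13 passed newly, 4 no longer passed and 28 changed sign; the cause of these changes was not tested. The log2 fold changes that changed sign belonged to members that did not pass. Mrps6 had -0.044 after rescaling without erythroid and top genes, -0.053 with sample weights, -0.19 without the length trend and -0.093 without the library richest in haemoglobin in each group, and -0.19 to 0.26 when single libraries were left out. Mrpl48 had -0.012 after rescaling, -0.015 with sample weights and -0.040 without those libraries, and -0.042 to 0.18 without single libraries. Mrps17 had 0.0033 with a pseudocount of 0.1, 0.00061 with median-of-ratios scaling, 0.0040 with quantile normalization, 0.10 with sample weights and 0.28 without those libraries, and -0.17 to 0.19 without single libraries. Mrps16 had -0.085 with sample weights and -0.38 without those libraries, and -0.16 to 0.47 without single libraries. Mrps21 had -0.070 without the length trend, and Mrpl14 -0.47 to 0.065 without single libraries.

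All genes called numbered 406, against 107 with no filter, 0 without the variance trend (1197 at an unadjusted p under 0.05), 728 without the library richest in haemoglobin in each group and 0 to 610 without single libraries (0 without knock-in library 3, where 994 had an unadjusted p under 0.05). Rescaling without erythroid and top genes gave 178 higher and 257 lower, against 212 and 194. Large subunit genes called higher numbered 1, against 0 without the variance trend, 2 with sample weights, 2 without the haemoglobin-rich libraries and 0 to 2 without single libraries; those called lower numbered 0, against 2 without the haemoglobin-rich libraries and 0 to 2 without single libraries. The 2 called lower were Mrpl20 and Mrpl24, and Mrpl24 entered the test only through its wild-type level. Small subunit genes called higher numbered 0. They numbered 1 each for means of 5 FPKM or more, under robust empirical Bayes moderation, when libraries were weighted and without the haemoglobin-rich libraries. That 1 gene was Mrps36 each time, and its product is now assigned outside the ribosome. Without single libraries 0 to 1 were called, Mrps36 without knock-in library 1 and Mrps18c without wild-type library 3. The small subunit median was 0.11 with no filter, 0.16 without the length trend and 0.24 to 0.45 without single libraries. The large subunit median was 0.05 with no filter, -0.12 without the length trend and -0.18 to 0.03 without single libraries.

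Same-numbered libraries of the groups deviated together with correlations of 0.158, 0.023 and 0.141, so the numbers were not taken as pairs, although 5 of the 6 libraries correlated best with their own number in the other group; knock-in library 2 correlated better with wild-type library 3 (0.067). With the replicate number as a block 306 genes passed, and Mrpl42 was the member called (adjusted p = 0.0145). Absolute depth is unknown, and the 44 members below 1 FPKM were tested only with no filter, when those above 0 entered.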
